A study of Mus musculus with 13 samples.

Results

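The genes of oxidative phosphorylation that are encoded in the nucleus were compared, complex by complex, between the brains of wild type and R6/2 mice with and without a 3-drug treatment. Members were all probe sets assigned to 1 gene alone whose symbol begins with Ndufa, Ndufb, Ndufc, Ndufs, Ndufv, Sdh, Uqcr, Cox4 to Cox8 or Atp5, or is Cyc1 or Cycs. The rule itself uses names and no measured value. The rule found 75 genes, read by 103 of the 12488 probe sets of the array. Complex I contributed 29 genes, complex II 4, complex III 8, complex IV 14 and complex V 14, with Cycs as the only cytochrome c gene. A further 5 genes that the prefixes also take in are not subunits of a complex in the usual sense. These are the assembly factors Ndufaf1, Ndufaf4, Sdhaf1 and Sdhaf2, and Cox7a2l, a factor of supercomplexes. Another 10 probe sets matched the rule but were assigned to several genes and were left out.

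RNA from whole brain hemispheres was measured on 13 Affymetrix MG-U74Av2 arrays. The 4 groups were wild type without treatment (n = 3), wild type with the triple treatment (n = 3), R6/2 without treatment (n = 4) and R6/2 with the triple treatment (n = 3). R6/2 mice model Huntington's disease through a transgene that expresses exon 1 of human huntingtin, with an expanded CAG repeat, from the human promoter. This triple treatment was tacrine at 2.7 mg/kg/day, begun at 5 weeks of age, moclobemide at 10 mg/kg/day, and creatine at 1% in the food mash. Tacrine blocks cholinesterases, moclobemide blocks monoamine oxidase A, and creatine buffers ATP through phosphocreatine. The sample descriptions list these drugs for untreated mice too, so the titles alone decided who was treated. An age of 8 weeks at harvest is given for 1 untreated wild type sample, and none of the labels says whether arrays were separate animals. The p-values below therefore measure the spread between these arrays, which may be technical in part. The description of treated R6/2 array 1 carries the sample number of untreated R6/2 array 4 in place of its own, so the calls are also given without either array.

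Oxidative phosphorylation makes most of the ATP of neurons. Complexes I and II pass electrons from NADH and succinate to ubiquinone, complex III passes them to cytochrome c, and complex IV, cytochrome c oxidase, passes them to oxygen. Complexes I, III and IV pump protons across the inner mitochondrial membrane, and complex V, the ATP synthase, uses the gradient to make ATP. Most subunits come from nuclear genes, many of which are known targets of the transcription factors NRF-1 and GABP. The remaining subunits are encoded by mitochondrial DNA, and 0 of the 13 protein genes of mitochondrial DNA had a probe set assigned here, so the complexes were seen only through their nuclear genes.

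The promoters of the members that passed the threshold between untreated genotypes are shown because they let a reader see which of the known respiratory motifs lie next to these genes. The RefSeq promoter table (build GRCm38.p6) held 61 of the 75 member genes, and 5 of the 8 genes that passed. The windows are the 250 bases before the first listed start, read 5′ to 3′ on the strand of the gene. Capitals mark matches, on either strand, to the NRF-1 motif GCGCANGCG, to the ETS motif CCGGAAG that GABP binds, or to the SP1 motif GGGCGG. Cycs lies at chr6:50566570-50566819 (minus strand), Sdha at chr13:74350241-74350490 (minus), Sdhaf1 at chr7:30322376-30322625 (minus) and Cox7b at chrX:106015450-106015699 (plus).
Cycs: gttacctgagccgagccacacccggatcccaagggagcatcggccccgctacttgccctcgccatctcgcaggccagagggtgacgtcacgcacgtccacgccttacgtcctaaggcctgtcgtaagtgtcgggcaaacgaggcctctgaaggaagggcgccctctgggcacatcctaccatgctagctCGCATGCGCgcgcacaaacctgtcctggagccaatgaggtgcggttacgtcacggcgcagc
Sdha: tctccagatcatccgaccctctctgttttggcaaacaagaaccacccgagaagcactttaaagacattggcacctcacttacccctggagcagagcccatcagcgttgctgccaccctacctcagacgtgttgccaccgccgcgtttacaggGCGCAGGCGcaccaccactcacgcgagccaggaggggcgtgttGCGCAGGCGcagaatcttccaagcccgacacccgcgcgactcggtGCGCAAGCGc
Sdhaf1: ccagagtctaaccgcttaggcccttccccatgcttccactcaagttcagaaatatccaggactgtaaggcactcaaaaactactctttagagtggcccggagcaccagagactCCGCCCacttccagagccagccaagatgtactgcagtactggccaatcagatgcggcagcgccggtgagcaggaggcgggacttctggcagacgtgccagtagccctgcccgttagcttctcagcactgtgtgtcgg
Cox7b: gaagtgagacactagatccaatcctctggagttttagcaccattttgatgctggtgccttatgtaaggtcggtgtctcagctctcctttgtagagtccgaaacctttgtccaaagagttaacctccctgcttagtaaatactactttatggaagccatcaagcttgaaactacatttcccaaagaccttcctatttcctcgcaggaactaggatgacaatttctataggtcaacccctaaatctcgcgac

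Cycs held 1 match to the NRF-1 motif and Sdha held 3. Sdhaf1 held 1 match to the SP1 motif, and no marked letters occurred in the windows of Cox7b and of Atp5d, the fifth gene. Across all members in the table, the NRF-1 motif was present in 10 of 61 windows (16.4%), against 5.33% of the 27025 first-start windows of all genes. The 10 genes were Ndufa5, Ndufa8, Sdha, Sdhd, Cycs, Cox6a1, Atp5g2, Atp5k, Atp5l and Ndufaf4. The ETS motif was present in 12 member windows (19.7% against 7.05%) and the SP1 motif in 27 (44.3% against 32.9%). The TATA box TATAAA was present in 5 (8.2% against 13%), the E box CAGCTG in 4 (6.56% against 12.8%) and the YY1 motif AAGATGG in 0 (against 4.53%). Each motif was looked for on both strands and counted on its own, whether or not it shared bases with another. Member windows also held more CpG dinucleotides, with a median of 14 against 6 in all genes. The part of this base composition in the motif shares was not tested.

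Of the 103 probe sets, 80 (77.7%), reading 69 genes, passed the filter on low signal, which by its construction kept 60% of all gene probe sets. The filter was set on the mean over all 13 arrays and used no group labels. A probe set could still pass through the groups where it was high. The fainter probe sets of Atp5l and Atp5g1 and the kept one of Ndufa1 were below the cut of 24.9 in untreated wild type. Their means there were 22.07, 21.87 and 21, so their rises from untreated wild type are not free of the filter. All 4 probe sets of complex II and all 9 of complex III passed, with 30 of 38 in complex I, 19 of 22 in complex V, 5 of 7 of the assembly genes and 12 of 22 in complex IV. The genes Ndufa12, Ndufc2, Cox5a, Cox7a1, Cox8a and Atp5j2 had only probe sets below the filter. Core subunits with no probe set assigned to them alone, such as Ndufs7, Ndufs8, Uqcrfs1 and Atp5b, were not analysed here.

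Signals were scaled by the authors to a trimmed mean of about 100 on each array, and the neuronal marker Snap25 read between 2319.2 and 4167.3. Markers of several cell types differed between the untreated genotypes. The summed signal of the oligodendrocyte list (11 probe sets) was 5594 to 6413 in untreated wild type and 2796 to 3790 in untreated R6/2 arrays. Of its 10 kept probe sets, which read only 5 genes, 6 fell. The summed signal of the neuron list (14 probe sets) was 11630 to 11930 and 9700 to 10810 in the same groups. Of its 13 kept probe sets, 4 were lower and 1 higher. The 3 probe sets of the blood list summed to 1979 to 3525 in untreated wild type and 995.2 to 1650 in treated wild type arrays. They summed to 904.4 to 1872 in untreated R6/2 and 927.5 to 2146 in treated R6/2 arrays. Alas2 among them fell between untreated genotypes. It read 42.2, 45.6 and 75.7 in untreated wild type and 27.3, 12.8, 22.8 and 14.4 in untreated R6/2 arrays. Of the latter, only array 1 was above the filter at 24.9. Alas2 was thus kept in part through its high untreated wild type signal, so its fall is not free of the filter. Of the astrocyte list 2 of 9 kept probe sets fell, of the microglia list 1 of 8 rose, and of the endothelium list 0 of 5 passed. Their median changes were -0.01, 0.04 and 0.17. Over all probe sets kept, 5.49% rose and 6.41% fell between untreated genotypes. In such bulk tissue, fewer cells of a type and less RNA per cell cannot be told apart, and the part of cell composition in the results below was not tested. Untreated R6/2 arrays 2 and 3 stood apart in the members too. They were the 2 highest of all 13 arrays in 19 of the 80 member probe sets (23.8%, against 15.3% of all 7453 kept) and the 2 lowest in 8 (10%, against 12.7%). The counts and calls are therefore also given without these 2 arrays. The arrays were picked from these same data, and leaving them out also makes the group smaller. Where they were the 2 highest or 2 lowest, their omission had to lower or raise the untreated R6/2 mean. Among the members called below, this held for Sdhaf1, Cycs, Uqcrc2, Cox7b, Sdha and the called Cyc1 probe set.

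The first comparison asked how R6/2 brains differ from wild type brains when neither group was treated. Calls among the members were about as frequent as over all probe sets. A log2 change is the mean log2 signal of one group minus that of the other, so that 1 means a doubling, and a probe set passed when its limma p-value, adjusted by Benjamini-Hochberg over all 7453 kept probe sets, was under 0.05. Of the 80 member probe sets, 8 passed (10%), against 11.9% of all probe sets tested. The 6 that rose were Sdhaf1, Cycs, Uqcrc2, Cox7b, Sdha and 1 of 4 probe sets of Atp5d, and the 2 that fell were Cox6a2 and 1 of 2 probe sets of Cyc1. Over all probe sets tested, 5.49% rose and 6.41% fell. The groups did not overlap in 20 members (25%; 15 higher and 5 lower), against 26.2% of all probe sets. The median change of the members was 0.06, against 0.04 over all probe sets, and the median half-width of a 95% interval was 0.32. The interval excluded a change of 1 log2 unit in either direction for 75 of the 80, and a change of 0.5 for 35.

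**Figure D1:**
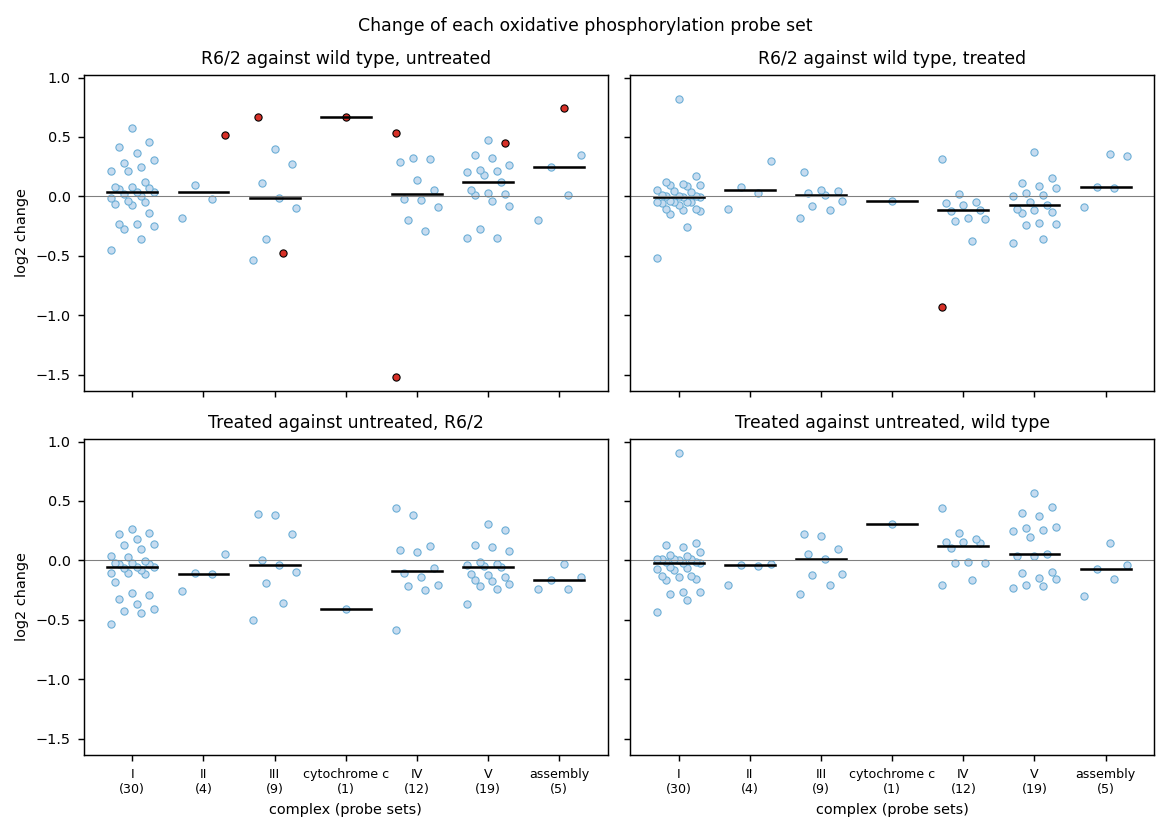
Log2 change of each of the 80 kept member probe sets (vertical axis) by complex (horizontal axis, number of probe sets in brackets) in 4 comparisons. Each circle is a probe set, red circles passed an adjusted p of 0.05, black bars are medians, and Cox6a2 is the red circle at -1.52 in the first panel and at -0.93 in the second, while both treatment panels hold no red circle.

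Complex I, the entry point for NADH and the largest complex of the chain, showed no call. Of its 30 probe sets, 0 passed in the untreated genotypes, 7 had an unadjusted p under 0.05 (23.3%, against 30.2% of all probe sets), and the median change was 0.04. The nearest to the threshold was Ndufs1, an iron-sulfur core subunit. Its signal was 417.9, 377.8 and 330.5 in untreated wild type and 412.5, 531.3, 634.2 and 497.3 in untreated R6/2 arrays. The groups overlapped through untreated R6/2 array 1, and the change was 0.46 ± 0.15 (SE, limma adjusted p = 0.0556). Without that array the change was 0.56 and the limma adjusted p 0.0179. Without untreated R6/2 arrays 2 and 3 it was 0.28 with a limma adjusted p of 0.317. The other core subunits differed less: Ndufv1, which binds NADH, by -0.23, its neighbour Ndufv2 by 0.07 on the brighter of its 2 probe sets, and Ndufs3 by 0.12. Among accessory subunits, Ndufv3 had a change of -0.45 (adjusted p = 0.0791 by limma) and the acyl carrier protein Ndufab1 one of 0.36 (adjusted p = 0.0747).

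In complex II, which oxidises succinate and is shared with the tricarboxylic acid cycle, the flavoprotein Sdha rose and the other 3 subunits did not pass. Sdha read 240.7, 219.0 and 208.9 in untreated wild type and 249.9, 342.6, 389.9 and 309.4 in untreated R6/2 arrays. Every untreated R6/2 array lay above every untreated wild type array, the lowest of them, array 1, only narrowly. The change was 0.52 ± 0.15 (SE, limma adjusted p = 0.0399). The iron-sulfur subunit Sdhb had a change of -0.02, and the membrane anchors Sdhc and Sdhd had changes of -0.18 and 0.10. The complex II assembly factor Sdhaf1, which helps to insert the iron-sulfur clusters of Sdhb, rose more than any other member. It read 119.9, 127.2 and 124.0 in untreated wild type, 154.2, 142.2 and 117.3 in treated wild type, 199.7, 206.0, 253.8 and 177.8 in untreated R6/2, and 182.5, 166.1 and 178.1 in treated R6/2 arrays. All 7 R6/2 arrays were higher than all 6 wild type arrays. The change between untreated genotypes was 0.75 ± 0.14 (SE), a ratio of 1.68 (limma adjusted p = 0.00604), and it was 0.61 (limma adjusted p = 0.037) without untreated R6/2 arrays 2 and 3 and 0.82 (limma adjusted p = 0.00406) without untreated R6/2 array 4. The probe set of Sdhaf1 carries the _f mark, which on this array means that its probes can also read related sequences. The other assembly genes did not pass: Ndufaf1 had a change of 0.35, Ndufaf4 of 0.25, Sdhaf2 of 0.01 and Cox7a2l of -0.20.

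Complex III showed changes in both directions, which its probe sets did not share. The core protein Uqcrc2 rose, on a probe set that carries the _f mark and so can also read related sequences. It read 369.9, 421.2 and 424.1 in untreated wild type and 481.3, 670.5, 963.4 and 546.7 in untreated R6/2 arrays. The groups did not overlap, but untreated R6/2 arrays 2 and 3 stood above the others, array 3 by far. The change was 0.67 ± 0.19 (SE, limma adjusted p = 0.0366). Its partner in the core of the complex, Uqcrc1, read 842.7, 948.1 and 974.0 against 856.8, 613.6, 470.9 and 651.3, a change of -0.54 ± 0.18 that did not pass (limma adjusted p = 0.0666). Arrays 2 and 3 thus held extreme values of both core proteins, in opposite directions, and without them the changes were 0.34 (limma adjusted p = 0.18) and -0.30 (limma adjusted p = 0.373). The hinge protein Uqcrh and the small subunits Uqcr10 and Uqcrq had changes between -0.10 and 0.11, and the small subunits Uqcrb and Uqcr11 had changes of 0.40 and -0.36, none past the threshold.

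Cyc1, the cytochrome c1 of complex III, was read by a pair of kept probe sets that gave opposite answers. The brighter one read 1272.8, 1286.6 and 1160.7 in untreated wild type and 1359.6, 1575.9, 1548.2 and 1513.3 in untreated R6/2 arrays. The other, whose name carries the _r mark, read 1009.5, 1056.6 and 1178.5 against 839.6, 733.8, 676.2 and 879.3. Neither pair of groups overlapped, yet R6/2 was higher on the first and lower on the second. The changes were 0.27 ± 0.10 (limma adjusted p = 0.0836) and -0.47 ± 0.14 (limma adjusted p = 0.0401), so the fall called for Cyc1 rests on 1 probe set that the other contradicts. Atp5d, the delta subunit in the central stalk of complex V, was similar: its 4 kept probe sets had changes of -0.35, 0.45, 0.06 and 0.21, and only the second, marked _f, passed. That probe set read 68.8, 73.9 and 68.4 in untreated wild type and 99.7, 98.8, 100.1 and 85.4 in untreated R6/2 arrays (limma adjusted p = 0.0338). Of the 9 genes with several kept probe sets, 4 had opposite signs between untreated genotypes, the others being Ndufb2 (0.28 and -0.28) and Atp5l (-0.28 and 0.48). The Atp5l probe set at 0.48 averaged 22.07 in untreated wild type, below the filter at 24.9, and was kept through other groups. In the other 5 (Atp5c1, Atp5g1, Cox4i1, Ndufa3 and Ndufv2) the signs were the same and none passed.

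**Figure D2:**
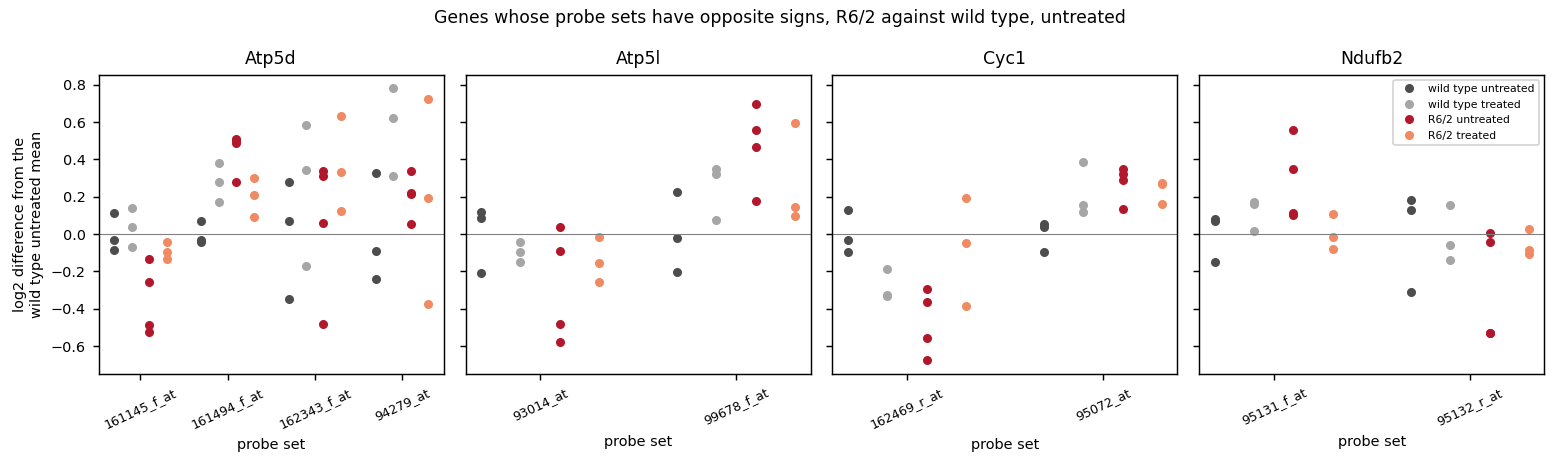
Log2 difference of each array from the untreated wild type mean (vertical axis) for the kept probe sets (horizontal axis) of Atp5d, Atp5l, Cyc1 and Ndufb2, the 4 genes whose probe sets had opposite signs between untreated genotypes. Colours mark the 4 groups, and for Cyc1 the untreated R6/2 arrays lie above the untreated wild type arrays on one probe set and below them on the other.

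Cytochrome c, encoded by Cycs, carries electrons from complex III to complex IV and also starts apoptosis when released. It read 142.8, 109.9 and 109.0 in untreated wild type, 171.4, 141.2 and 132.6 in treated wild type, 169.5, 225.2, 208.9 and 162.2 in untreated R6/2, and 150.3, 128.1 and 152.6 in treated R6/2 arrays. All 4 untreated R6/2 arrays were above both the untreated wild type and the treated R6/2 arrays, whereas the treated groups of the 2 genotypes overlapped. The change between untreated genotypes was 0.67 ± 0.16 (SE), a ratio of 1.59 (limma adjusted p = 0.0184). It was 0.47 (limma adjusted p = 0.135) without untreated R6/2 arrays 2 and 3.

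Complex IV held the change that stood out among the members. Cox6a2, named the heart and skeletal muscle isoform of subunit 6a, read 115.0, 119.4 and 94.2 in untreated wild type and 99.8, 89.6 and 93.4 in treated wild type arrays. It read 32.4, 43.9, 36.6 and 40 in untreated R6/2 and 44.6, 52.7 and 51.6 in treated R6/2 arrays. The highest of the 7 R6/2 arrays lay far below the lowest of the 6 wild type arrays. The change between untreated genotypes was -1.52 ± 0.15 (SE; 95% interval -1.84 to -1.20), which leaves 0.35 of the wild type signal (limma adjusted p = 0.000125). By p-value it ranked at 3 among the 7453 probe sets tested. It was -1.60 (limma adjusted p = 0.000385) without untreated R6/2 arrays 2 and 3, and -1.54 (limma adjusted p = 0.000292) without untreated R6/2 array 4.

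Cox6a1, the isoform that takes the place of Cox6a2 outside muscle, did not pass. It read 1666.9, 1970.4 and 2052.2 in untreated wild type and 1761.9, 2369.2, 2484.6 and 1795.2 in untreated R6/2 arrays. The groups overlapped, and the change was 0.14 with a 95% interval of -0.23 to 0.50. The other muscle isoforms of complex IV were near or below the filter: Cox8b had a change of -0.19 with overlapping groups, and Cox7a1 read at most 10.1 on any array. Of the 5 genes of the muscle marker list, Mb, Myh6 and Tnnt2 were below the filter, with Mb between 1.6 and 12.8. The alpha-actin Acta1 fell as well (63.2, 66.7 and 57.4 against 47.0, 37.9, 26.8 and 33.5, a change of -0.81, limma adjusted p = 0.0367). The kept probe set of the creatine kinase Ckm went the other way and did not pass. It read 24.5, 17.4 and 20.1 in untreated wild type and 31.2, 50.3, 22 and 38.5 in untreated R6/2 arrays. The summed signal of the muscle list was 99.1 to 128.6 in untreated wild type, 127.1 to 134.8 in treated wild type, 80.2 to 134.7 in untreated R6/2 and 94.7 to 137.1 in treated R6/2 arrays, and its part in the change of Cox6a2 was not tested. Which cells of these brains gave the Cox6a2 signal was not tested either.

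The other complex IV call was Cox7b, a small subunit, which read 518.7, 486.1 and 463.2 in untreated wild type and 565.6, 856.5, 845.8 and 611.0 in untreated R6/2 arrays. Untreated R6/2 arrays 2 and 3 were far above the rest, and the change of 0.53 ± 0.15 (limma adjusted p = 0.0357) was 0.27 (limma adjusted p = 0.239) without them. Cox4i1 and Cox5b, subunits found in every tissue, did not pass, with changes of 0.29 on the brighter probe set and -0.09. Cox7a2, the non-muscle isoform of subunit 7a, read 1208.9, 1353.4 and 1359.2 against 990.6, 1058.1, 1048.9 and 1171.2. Those groups did not overlap, but the change of -0.29 did not pass (limma adjusted p = 0.0676).

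In complex V, 14 of 19 probe sets had a positive change between untreated genotypes (73.7%, against 54.3% of all probe sets), with a median of 0.12, and the Atp5d probe set described above was the only 1 that passed. The 14 include the fainter probe sets of Atp5l and Atp5g1, whose untreated wild type means, 22.07 and 21.87, were below the filter. The alpha subunit of the catalytic head, Atp5a1, read 1519.2, 1563.4 and 1470.4 in untreated wild type and 1613.7, 1948.3, 2021.6 and 1731.8 in untreated R6/2 arrays. Every R6/2 array was higher, but the change of 0.26 ± 0.10 did not pass (limma adjusted p = 0.0841). It was 0.14 without untreated R6/2 arrays 2 and 3 (limma adjusted p = 0.386), and 12 of the 19 probe sets had a positive change. The gamma subunit Atp5c1 and the peripheral stalk subunit Atp5o had changes of 0.22 and 0.12. Atp5g1 and Atp5g2 encode the same ring-forming subunit c, and their brighter probe sets had changes of 0.35 and -0.03, neither past the threshold.

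**Figure D3:**
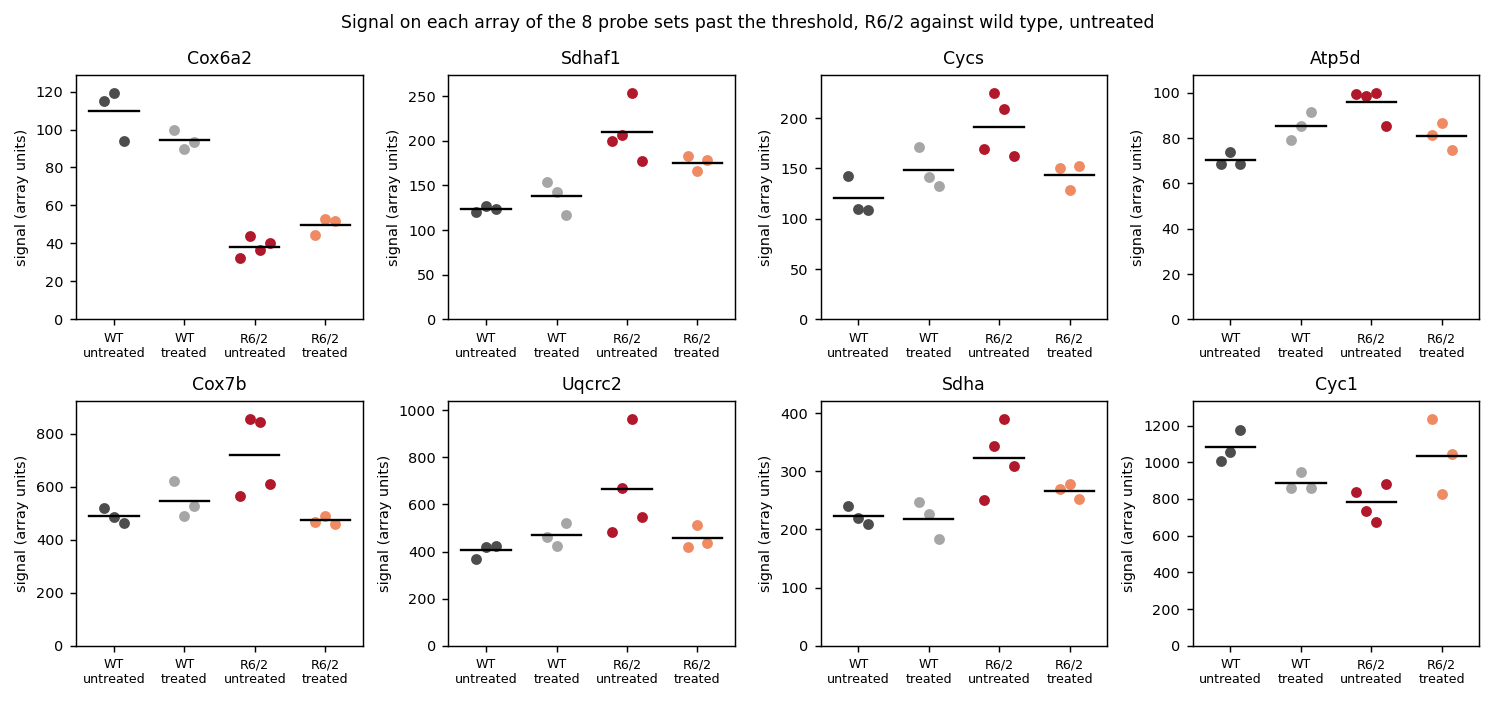
Signal in array units (vertical axis, from 0) of the 8 probe sets that passed between untreated genotypes, with 1 point for each array, grouped by genotype and treatment (horizontal axis), and bars at the group means. Cox6a2 is at 52.7 or less on all R6/2 arrays and at 89.6 or more on all wild type arrays, whereas for Cox7b and Uqcrc2 a pair of untreated R6/2 arrays stands above the rest.

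All 8 calls were kept without untreated R6/2 array 4, with limma adjusted p of 0.0398 or less. Without treated R6/2 array 1 the call of Sdha was lost (limma adjusted p = 0.0528). Of the 8 calls, those of Cox6a2 and Sdhaf1 were kept when any 1 of the 13 arrays was left out (limma adjusted p at most 0.00212 and 0.0311). The others depended on single arrays. Those of Cox7b, Uqcrc2 and Atp5d were each lost without any 1 of the 3 untreated wild type arrays or of untreated R6/2 arrays 2 and 3, with limma adjusted p up to 0.123, 0.109 and 0.115. The call of Cycs was lost without untreated wild type array 2 or 3 or untreated R6/2 array 2 (limma adjusted p up to 0.0854). Those of Sdha and of the Cyc1 probe set were lost without the same 5 arrays as Cox7b and without treated R6/2 array 3 or treated wild type array 2. Treated R6/2 array 1 for Sdha and treated wild type array 1 for Cyc1 also ended the call, with limma adjusted p up to 0.136 and 0.149. Without untreated R6/2 arrays 2 and 3 together, 2 of 80 members passed, Cox6a2 and Sdhaf1, and 2.24% of all probe sets did. The sizes without those 2 arrays were 0.32 for Sdha, 0.39 for Atp5d and -0.33 for Cyc1.

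A chosen list, called core subunits here, leaves out most small accessory proteins. It is not confined to subunits with redox centres or catalytic parts. Among its genes are also Cox4i1 and Cox5b of complex IV and the peripheral stalk subunit Atp5o. Of 24 such genes, cytochrome c among them, 19 had a probe set and 18 were kept, and on their brightest probe sets 3 passed between untreated genotypes, Sdha, Uqcrc2 and Cycs, against 11.9% of all probe sets. None of these 3 passed without untreated R6/2 arrays 2 and 3 (limma adjusted p = 0.256, 0.18 and 0.135). Those arrays were the 2 highest for all 3 genes, so leaving them out had to shrink the changes. With all arrays, the changes of the 18 genes ranged from -0.54 for Uqcrc1 to 0.67 for Uqcrc2. The 95% interval excluded a change of 1 log2 unit for 17 of the 18 and a change of 0.5 for 9. Between treated genotypes 0 of the 18 passed, the changes ranged from -0.18 to 0.30, and the interval excluded a change of 0.5 for 16.

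**Figure D4:**
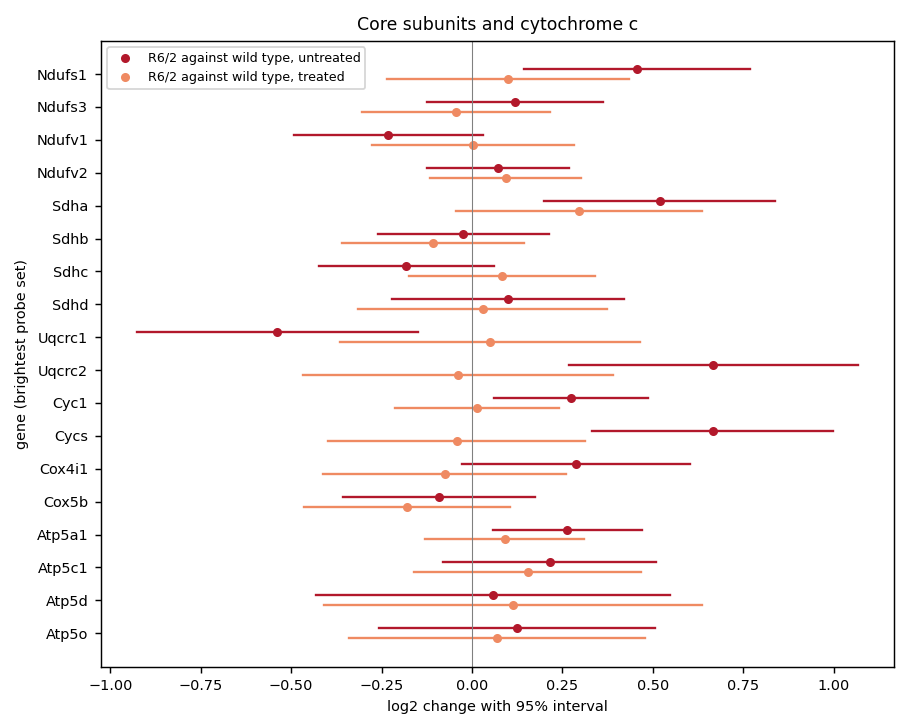
Log2 change with its 95% interval (horizontal axis) for the brightest probe sets of 18 genes on the core subunit list (vertical axis). R6/2 is set against wild type, untreated in dark red and treated in orange. The untreated changes spread from -0.54 to 0.67 and the treated changes from -0.18 to 0.30.

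Averaged over its probe sets, no complex as a whole moved far. Each probe set was expressed as its log2 difference from the untreated wild type mean, and the mean over the 30 complex I probe sets was between -0.07 and 0.04 in untreated wild type and between 0.02 and 0.10 in untreated R6/2 arrays. Complex III was between -0.12 and 0.07 in untreated wild type and between -0.04 and 0.02 in untreated R6/2 arrays. Complex IV was between -0.06 and 0.07 and between -0.11 and 0.08. These ranges overlapped for complexes I to IV. Complex V was between -0.03 and 0.04 in untreated wild type, between 0.07 and 0.11 in untreated R6/2, between 0.02 and 0.18 in treated wild type and between 0.01 and 0.06 in treated R6/2 arrays. The untreated groups of complex V did not overlap, with group means 0.10 apart. These means include the fainter Atp5l and Atp5g1 probe sets, which were below the filter in untreated wild type. The mean over all 7453 probe sets lay between -0.06 and 0.05 on every array.

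**Figure D5:**
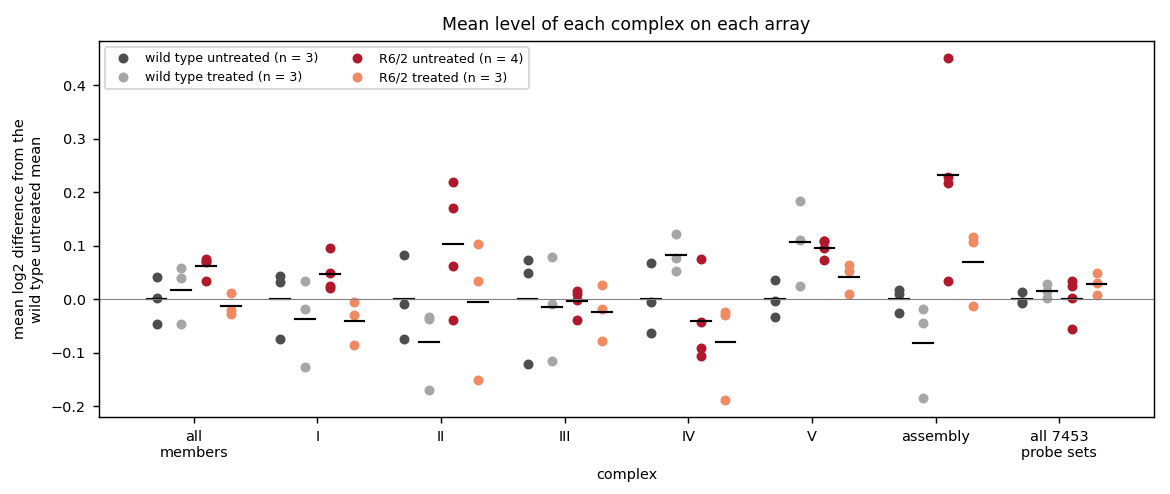
Mean log2 difference from the untreated wild type mean (vertical axis) over the kept probe sets of each complex and of all 7453 kept probe sets (horizontal axis). Each point is an array, colours mark the 4 groups and bars are group means, and the points of most complexes lie within 0.2 of 0, with the 5 assembly genes reaching 0.45 on untreated R6/2 array 3.

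The second comparison set the genotypes side by side under treatment. Only Cox6a2 passed, so 1 of 80 members was called (1.25%), against 0.792% of all probe sets, of which 0.711% were lower in R6/2. Its change was -0.93 ± 0.16 (SE; 95% interval -1.27 to -0.59; limma adjusted p = 0.0111). The call was lost without treated wild type array 1 (-0.89, limma adjusted p = 0.0681) and without treated R6/2 array 1, the array with the conflicting sample number (-0.85, limma adjusted p = 0.0647). Groups did not overlap in 9 members (11.2%), against 16.8% of all probe sets, and the median change was -0.04 against 0.03. Sdhaf1 was higher in every treated R6/2 array than in every treated wild type array, with a change of 0.36 ± 0.15 that did not pass (limma adjusted p = 0.452). The other members called between untreated genotypes had treated changes of -0.04 for Cycs, -0.04 for Uqcrc2, -0.20 for Cox7b, 0.30 for Sdha, -0.07 for the Atp5d probe set and 0.20 for the Cyc1 probe set. Their 95% intervals all included 0, as that of Cycs, from -0.40 to 0.31, shows.

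Treatment within a genotype gave no call. Treated R6/2 arrays were compared with untreated R6/2 arrays, the same untreated arrays that enter the first comparison, so the signs of these 2 comparisons are tied. Of the 80 members 0 passed, as did 0% of all probe sets, with a smallest limma adjusted p of 0.246 among the members. At an unadjusted p under 0.05 there were 14 members (17.5%), 11 of them lower with treatment, against 16.9% of all probe sets. Changes were negative in 57 of 80 members, against 3547 of all 7453 probe sets, with a median of -0.07 against 0.02. Without untreated R6/2 arrays 2 and 3 they were negative in 60 members, with a median of -0.06, and 0 passed. No share over all probe sets is given for those 60. The median was -0.06 without untreated R6/2 array 4, and without treated R6/2 array 1 it was -0.10, and 0 passed in either case. Groups did not overlap in 7 members (8.75%), against 10.6% of all probe sets. These 7 were Ndufb9, Ndufb5, Ndufab1, Cox7b, Cycs and Sdhaf2, all lower with treatment, and Cox6a2, which was higher. Cox7b had a change of -0.58, which was -0.69 with a limma adjusted p of 0.0319 when untreated R6/2 array 1 was left out, the only array whose omission gave a call here. Cycs had a change of -0.41 and Cox6a2 one of 0.38. The largest other falls in size were those of Ndufc1 (-0.54), Uqcrc2 (-0.50) and Ndufb5 (-0.45), none past the threshold. Without untreated R6/2 arrays 2 and 3 the changes were smaller, at -0.31 for Cox7b, -0.21 for Cycs, -0.38 for Ndufc1, -0.18 for Uqcrc2 and -0.20 for Ndufb5, while that of Cox6a2 was 0.46.

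In wild type mice 0 of 80 members and 0% of all probe sets passed, with a smallest limma adjusted p of 0.303 among the members. At an unadjusted p under 0.05 there were 3 members (3.75%), Ndufa1, 1 probe set of Atp5d and Cox7a2l, against 10.3% of all probe sets. Ndufa1, a small accessory subunit of complex I, read 21.2, 20.0 and 21.8 in untreated and 42.2, 36.0 and 39.9 in treated wild type arrays. The treated arrays were all higher, but the signals are near the filter at 24.9, and the R6/2 arrays, at 20.9 to 40.5, covered both. The change of 0.90 did not pass (limma adjusted p = 0.303). Groups did not overlap in 12 members (15%), against 21.8% of all probe sets, and the median change was -0.01 against 0.01.

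Whether the genotype difference itself differed with treatment was tested by the interaction. Of the members 0 passed, as did 0% of all probe sets, and 10 had an unadjusted p under 0.05 (12.5%, against 13.5%). Ndufa1 had an interaction of -1.09, Cox7b one of -0.74, Cycs one of -0.71, Uqcrc2 one of -0.71 and Cox6a2 one of 0.59 (95% interval 0.12 to 1.06), with limma adjusted p of 0.305 or more in all. The smaller differences in treated mice are thus not shown to be smaller. With the genotype effect averaged over treatment, 4 of 80 members passed (5%), against 6.61% of all probe sets (2.58% higher and 4.04% lower). Cox6a2 fell by 1.22 on the log2 scale (limma adjusted p = 1.6e-05), and Sdhaf1 rose by 0.55 (limma adjusted p = 0.0043), Sdha by 0.41 (limma adjusted p = 0.0385) and the complex I assembly factor Ndufaf1 by 0.34 (limma adjusted p = 0.0482). Ndufaf1 read 91.5, 102.1 and 96.5 in untreated wild type, 91.9, 89.8 and 79.2 in treated wild type, 119.8, 119.4, 150.3 and 105.7 in untreated R6/2 and 110.0, 107.5 and 111.8 in treated R6/2 arrays. Its R6/2 arrays were thus all above its wild type arrays, but the call was kept in only 2 of 13 fits that left out 1 array, those without untreated R6/2 array 1 or 4, with limma adjusted p up to 0.108 in the rest. That of Sdha was kept in 4 of 13.

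Other genes of mitochondrial energy metabolism were read from lists. Of the tricarboxylic acid cycle and pyruvate dehydrogenase, 14 genes (17 probe sets) were kept and 0 passed in any of the 6 comparisons; the median change between untreated genotypes was 0.09. Citrate synthase, Cs, often used as a measure of mitochondrial content, had a change of -0.22 (limma adjusted p = 0.121). Of 6 other assembly factors that were kept, 0 passed between untreated genotypes, although all 6 had positive changes with a median of 0.23. The complex IV factor Surf1 passed in the averaged comparison at 0.29 (limma adjusted p = 0.0499). Of 6 kept regulators of mitochondrial genes, 0 passed between untreated genotypes. The coactivator Ppargc1a and the mitochondrial transcription factor Tfam were below the filter, at no more than 21.8 and 12.8 on any array. Of 9 kept carrier and membrane genes (11 probe sets), 2 rose, against 5.49% of all probe sets. The porin Vdac2 rose by 0.49 (limma adjusted p = 0.041) and Immt, a scaffold of the cristae, rose by 0.50 (limma adjusted p = 0.0477), each on the only kept probe set of its gene, which carries the _r mark.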

How the data were processed

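The authors deposited 1 table of signal intensity on a linear scale, with a column for each of the 13 arrays. Tests on its values showed a mean of 100.047 to 100.128 per array after trimming 2% at each end, and the software is not given in the sources used here. Gene probe sets had array medians of 39.6 to 45.1, and the values were not normalized further. Values under 3.1, the 10th percentile, were set to 3.1, log2 was taken, and the 7453 of 12422 gene probe sets with a mean log2 at or above the 40th percentile were kept. Group means were estimated in limma 3.58.1 (R 4.3.3), with moderated variances that follow intensity and all 13 arrays sharing the spread, and was tested on simulated data. P-values were adjusted by Benjamini-Hochberg over the 7453 probe sets at a threshold of 0.05. Genes were taken from the platform annotation, in which 10833 probe sets had 1 gene, 396 several and 1193 none. Promoters are from RefSeq (GRCm38.p6).

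The members and lists were chosen with earlier results of these data known. Named genes were those past the threshold, those with the smallest p in each complex, core subunits, isoform sets, and genes whose probe sets diverged. Those the text adds to them were chosen after their values were seen. The number of arrays limits the precision. The array's probe sets marked _f, _s or _g can read related sequences, and many respiratory genes have processed pseudogenes. The marks _r and _i also set a probe set apart from those with plain names. Alternatives were other scalings, floor, filter, weights, samples in the fit, 1 probe set per gene and arrays left out. A restriction to plain probe set names was added after seeing the data.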

Additional observations from a re-analysis of the deposited data

Results flagged for a closer look

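In untreated R6/2, the group of 4 arrays, the array farthest from the rest was compared with the range of the group for each of the 80 members. The Atp5d probe set that passed between untreated genotypes read 85.4 on array 4 and 98.8 to 100.1 on the other 3, a gap of 0.912 of the range, above Dixon's 95% critical value. Ndufa2 read 223.1 on array 3 and 299.7 to 311.6 on the others, a gap of 0.866 of the range. These were 2 of 80 members (2.5%), and chance alone marks about 1 group in 20. The Ndufa2 value comes from array 3, which had the highest residual SD of the members, 0.279, against 0.14 to 0.222 on the other 12 arrays.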

How the results depend on the processing

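Without untreated R6/2 arrays 2 and 3, 14 of 80 changes between untreated genotypes took the other sign, each at most 0.248 in size over all arrays and none a call. Among those described, Cox8b became 0.19, Ndufaf4 -0.07, Cox6a1 -0.09, Sdhd -0.09, Atp5o -0.07 and Atp5g2 0.11. The same step turned 27 of 80 changes with treatment in R6/2. The 8 calls between untreated genotypes became 4 with array medians set equal, 2 with only the arrays compared, 2 without untreated R6/2 arrays 2 and 3, and 4 of 53 with plain probe set names, which leave out 27 members. They ranged from 2 to 15 when 1 array was left out: 2 without untreated wild type array 2 or 3 or untreated R6/2 array 2, 3 without untreated wild type array 1 or untreated R6/2 array 3, and 15 without untreated R6/2 array 1. Over all probe sets these fits called 156 to 1248, against 887. The 1 call between treated genotypes and the 0 calls for treatment in R6/2 ranged from 0 to 1. The 4 averaged calls became 2 with array medians set equal, 7 with array weights and 2 without untreated R6/2 arrays 2 and 3, and ranged from 2 to 6 when 1 array was left out. Without untreated R6/2 arrays 2 and 3, 5.69% of all probe sets passed in the averaged comparison. No such share is given for the other averaged counts, nor for the ranges between treated genotypes and with treatment in R6/2. Between untreated genotypes none is given for medians set equal, only the arrays compared or plain probe set names. Those counts are therefore no result about the members alone. Why these counts moved was not tested, and some of these fits also had fewer arrays. The median change with treatment in wild type, -0.01, turned to 0.02 without treated wild type array 2. Setting array medians equal moved the median of all probe sets by at most 0.05 in size and changed the sign of up to 11 members. No paired analysis was possible because the labels give no replicate numbers that groups share. Small changes are hard to call with 3 or 4 arrays a group, and signals near 24.9 are close to the filter.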

Other observations

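The vacuolar proton pump is built like the ATP synthase but uses ATP to acidify vesicles, among them the synaptic vesicles of neurons. All 13 of its genes that were measured alone were kept, on 18 probe sets. Between untreated genotypes 1 of the 18 fell, against 6.41% of all probe sets. This was Atp6v0a1, a membrane subunit found in synaptic vesicles, which fell by 0.94 on the log2 scale (limma adjusted p = 0.0475). The median change of the 18 was -0.06, and 0 passed in the other 5 comparisons. The synaptic vesicle markers Syp and Syn2 fell between untreated genotypes too, by 1.29 and 0.91 (limma adjusted p = 0.0037 and 0.00273), and their part in the change of Atp6v0a1 was not tested.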
